A study of Mus musculus with 2 samples.

Results

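The 8 genes described here encode the neurofilament proteins of brain neurons (Nefl, Nefm, Nefh and Ina) and the 4 stathmins (Stmn1, Stmn2, Stmn3 and Stmn4). They were taken by their symbols from 55536 annotated genes, and 24 of 141862 annotated transcripts belong to them. The tissue was left cerebral cortex from 2 female mice, and total RNA was sequenced after ribosomal RNA had been reduced. The mice were of the strain B6CASTF1/J, whose parents are C57BL/6J and CAST/EiJ, were 36 days old and carried no treatment or engineered allele in the labels. Each mouse gave 1 library from 300 ng of RNA with synthetic spike-in RNAs of the External RNA Controls Consortium (ERCC), and both libraries form a single group. Each library is labelled with its own animal, yet both carry the same donor record. That record is assumed here to describe the strain. On this assumption the spread between the libraries is read as that between 2 mice, and no p-value was computed.

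Neurofilaments are the intermediate filaments of axons, built from light (Nefl), medium (Nefm) and heavy (Nefh) chains together with alpha-internexin (Ina), and their number and spacing set the calibre of large axons. Stathmins bind tubulin dimers and favour the disassembly of microtubules until kinases phosphorylate them. Stmn1 is cytosolic, while Stmn2, Stmn3 and Stmn4 are neuronal forms with an added membrane anchor, and Stmn2 is a classical marker of growing axons. In bulk tissue, fewer cells of a type and less RNA per cell cannot be told apart.

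The 4 stathmin genes share a coding exon of 192 bases, part of the tubulin-binding region, which is shown because it has the same length in all 4. It lies at chr4:134472804-134472995 in Stmn1 (plus strand), chr3:8554792-8554983 in Stmn2 (plus), chr2:181307216-181307407 in Stmn3 (minus) and chr14:66357846-66358037 in Stmn4 (plus). Sequences are 5′ to 3′ along each gene, from GENCODE M21 transcripts on the mouse build mm10, and capitals mark the bases identical in all 4 genes, 111 of 192 (57.8%).
Stmn1: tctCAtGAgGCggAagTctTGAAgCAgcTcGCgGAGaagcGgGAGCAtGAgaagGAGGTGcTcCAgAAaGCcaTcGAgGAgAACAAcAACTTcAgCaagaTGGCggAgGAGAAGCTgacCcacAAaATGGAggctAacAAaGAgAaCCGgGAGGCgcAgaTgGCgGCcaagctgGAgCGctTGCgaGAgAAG
Stmn2: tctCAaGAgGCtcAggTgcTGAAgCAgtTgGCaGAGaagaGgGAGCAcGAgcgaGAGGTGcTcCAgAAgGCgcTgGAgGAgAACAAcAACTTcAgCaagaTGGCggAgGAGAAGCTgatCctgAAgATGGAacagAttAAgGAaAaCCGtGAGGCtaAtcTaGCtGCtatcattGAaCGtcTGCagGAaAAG
Stmn3: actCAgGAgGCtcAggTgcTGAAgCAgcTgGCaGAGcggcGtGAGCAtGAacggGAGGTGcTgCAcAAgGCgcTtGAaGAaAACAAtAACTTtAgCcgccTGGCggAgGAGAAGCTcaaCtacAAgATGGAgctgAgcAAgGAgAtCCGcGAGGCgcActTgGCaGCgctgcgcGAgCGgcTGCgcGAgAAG
Stmn4: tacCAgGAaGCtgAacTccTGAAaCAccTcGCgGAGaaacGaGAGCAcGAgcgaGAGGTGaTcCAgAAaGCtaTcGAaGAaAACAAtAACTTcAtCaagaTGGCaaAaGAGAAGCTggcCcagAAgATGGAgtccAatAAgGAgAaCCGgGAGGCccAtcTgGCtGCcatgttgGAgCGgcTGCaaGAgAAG

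Over the whole coding sequence of the leading transcripts, pairs of neurofilament genes were identical at 69.4% to 76.0% of aligned bases, with the lowest value for Nefl and Ina and the highest for Nefh and Ina. Pairs of stathmin genes were identical at 70.2% to 74.5%, the highest being Stmn1 and Stmn2. The longest run of bases shared by any pair was 23 among the neurofilaments and 43 among the stathmins (Stmn1 and Stmn2), short of the 50 bases used here as a yardstick for reads that fit both genes. An exon of 96 bases was shared by Stmn2, Stmn3 and Stmn4 and not by Stmn1, whose coding sequence of 447 bases was the shortest of the family, against 537 in Stmn2, 540 in Stmn3 and 567 in the leading Stmn4 transcript.

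Copies in annotated transcripts of other genes bear mainly on Stmn1, and the rest of the genome was not searched. Of its 1956 runs of 50 bases, 18.9% also occur on the same strand in another annotated gene. The miRNA gene Gm23634, which overlaps Stmn1 itself and had 0 counts, holds 18 of these runs. The processed pseudogene Gm11223 holds 351, or 17.9% of the 1956. It was given 49.4 and 74.0 expected counts (estimated reads, with a read that fits several genes divided among them). The expected counts of Stmn1 were 8056 and 11209, so the pseudogene's share was small. For Stmn2 0.875% of the runs recur, in 108 genes. None of the runs of Nefl, Nefh, Ina, Stmn3 or Stmn4 recurs on the same strand, and 1 run of Nefm does.

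All 8 genes were expressed, taken as at least 1 TPM in both libraries (TPM is a share of all transcripts, corrected for length). Stathmin transcripts outnumbered neurofilament transcripts: the summed level of the 4 stathmins was 1111 and 1132 TPM in replicates 1 and 2 (1121 ± 14.9, SD, n = 2). The 4 neurofilament genes summed to 383 and 316 TPM (349 ± 47.5), and the ratio of stathmin to neurofilament transcripts was 2.90 and 3.58 in the 2 mice. A second quantification deposited for the same libraries gave higher sums, 2162 ± 186 and 510.5 ± 31.3 TPM, and a ratio of 3.81 and 4.70.

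Among the neurofilament genes, Nefl, the light chain on which the other chains assemble (ENSMUSG00000022055.7, chr14:68083863-68089095, plus strand), was the most abundant. It stood at 168 TPM in replicate 1 and 145 TPM in replicate 2 (157 ± 15.8), on 10294 and 12071 expected counts, which placed it at rank 453 of 12742 expressed nuclear protein-coding genes. Ina, the alpha-internexin gene (ENSMUSG00000034336.3, chr19:47014698-47025327, plus strand), followed at 109 and 89.7 TPM (99.2 ± 13.4), rank 880. Nefm, the medium chain (ENSMUSG00000022054.11, chr14:68082590-68124846, minus strand), stood at 84.5 and 61.4 TPM (73.0 ± 16.3), rank 1347. Nefh, the heavy chain, whose long tail projects from the filament (ENSMUSG00000020396.8, chr11:4938754-4948064, minus strand), was the lowest at 21.99 and 19.16 TPM (20.6 ± 2.00), on 1602 and 1887 expected counts and at rank 5184. In each of these genes replicate 1 was the higher library in TPM, and in both mice the order was Nefl, Ina, Nefm, Nefh.

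The proportions of the chains differed in how closely the mice matched. Nefl exceeded Nefh 7.63-fold in replicate 1 and 7.59-fold in replicate 2, and Nefl exceeded Ina 1.54-fold and 1.62-fold. The pairs that include Nefm were the less even relative to their means: Nefl over Nefm was 1.99 and 2.37 (2.18 ± 0.270), Ina over Nefm was 1.29 and 1.46 (1.37 ± 0.123), and Nefm over Nefh was 3.84 and 3.21 (3.52 ± 0.450). Ina over Nefh was 4.94 and 4.68 (4.81 ± 0.185).

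Among the stathmins, Stmn1, the cytosolic form found in many dividing and neural cells (ENSMUSG00000028832.11, chr4:134468320-134473843, plus strand), was the most abundant of all 8 genes. It stood at 452 and 463 TPM (457 ± 8.08), rank 65 of the expressed coding genes. Stmn3, also called SCLIP (ENSMUSG00000027581.12, chr2:181306459-181314500, minus strand), stood at 285 and 293 TPM (289 ± 5.69), rank 160, on 5520 and 7677 expected counts. Stmn2, also called SCG10 (ENSMUSG00000027500.10, chr3:8509360-8561606, plus strand), stood at 220.5 and 226 TPM (223 ± 3.67), rank 256, on 6313 and 8452 expected counts. Stmn4, also called RB3 (ENSMUSG00000022044.14, chr14:66344296-66361680, plus strand), stood at 154 and 151 TPM (153 ± 2.52), rank 470, on 3278 and 4422 expected counts. The libraries lay close together in each of the 4 genes, with replicate 2 slightly higher in all but Stmn4.

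The order from Stmn1 through Stmn3, Stmn2, Nefl, Stmn4, Ina and Nefm to Nefh was set by values that did not overlap between neighbours, except that Nefl and Stmn4 overlapped. The place of Stmn2 above Nefl rested on 55.4 and 63.1 TPM given to Stmn2-203, a transcript of 308 bases without a coding sequence. Its coding transcript Stmn2-201 alone stood at 163 and 161 TPM, between the 168 and 145 TPM of Nefl. Within the stathmins the ratios varied little between the mice but depended on the quantification. Stmn1 over Stmn2 was 2.05 in each library, against a mean of 3.68 in the second transcript table and 1.30 in expected counts. In TPM Stmn1 over Stmn3 was 1.59 and 1.58. Stmn3 over Stmn2 was 1.29 and 1.30, and the ratios to Stmn4 spread slightly more, at 2.93 and 3.07 for Stmn1, 1.84 and 1.94 for Stmn3 and 1.43 and 1.497 for Stmn2.

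**Figure D1:**
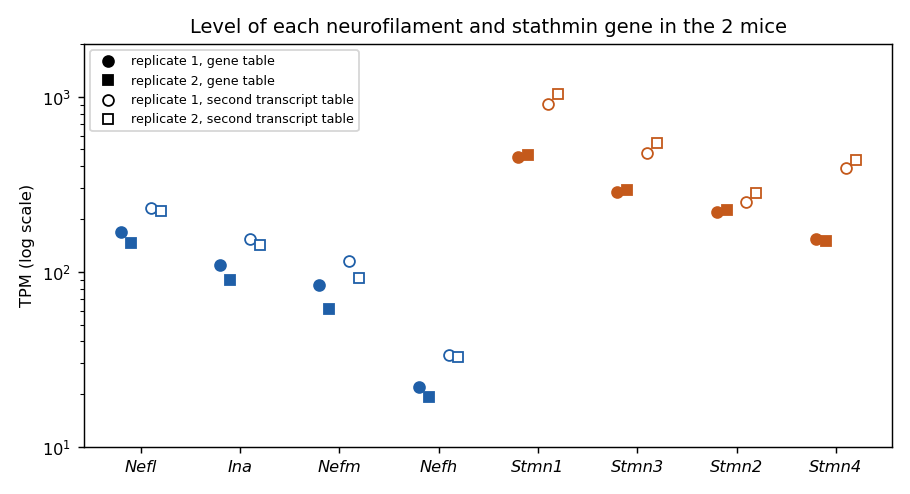
TPM (log axis) of each neurofilament gene (blue) and stathmin gene (orange) in replicate 1 (circles) and replicate 2 (squares), from the gene table (filled) and from the second transcript table (open). The filled points of Stmn1, at 452 and 463 TPM, are the highest and those of Nefh, at 21.99 and 19.16 TPM, the lowest, and the open points of Stmn4 lie above those of Stmn2.

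The place of Stmn4 depended on the quantification. In the second transcript table it stood at 412 ± 28.6 TPM, which was 2.70 times its level in the gene table, and Stmn2 stood at 265 ± 21.7 TPM, 1.19 times its level. Stmn2 over Stmn4 was therefore 0.642 there, against 1.46 in the gene table. The other members rose between the tables by 1.41-fold for Nefm to 2.13-fold for Stmn1, beside a median of 1.57-fold over 12706 expressed coding genes. That median was 1.71-fold for genes with an effective length under 1000 bases and 1.54-fold for those of 3000 to 4000 bases. The second table takes 336 and 331 bases off a long transcript's length, where the first takes off 99. The tables also differed in single transcripts of the members with unusual rises. Stmn4-209 had 0 TPM in the first transcript table and 176 and 198 TPM in the second. Stmn2-203 had 55.4 and 63.1 TPM in the first and 0 in the second. Stmn1-203 had 4.10 and 2.44 TPM in the first and 242 and 286 TPM in the second.

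Nefl and Nefm lie side by side on opposite strands, and an annotated transcript of Nefm runs into Nefl. Nefm-201, the full-length transcript with a coding sequence of 2544 bases, held 98.1% and 97.0% of the gene's TPM in the first transcript table and 98.2% and 96.9% in the second. Nefm-202 leaves out the last exon of Nefm-201 (2102 bases), runs through an exon of 67 bases at chr14:68115950-68116016 and ends in an exon of 2381 bases at chr14:68082590-68084970. That last exon covers 1108 of the 1147 bases of the first exon of Nefl on the opposite strand. Both Nefm transcripts are given from the end of the exon they share onward, because the end of the transcript is what separates them: lower case marks the last 20 bases of that exon and capitals the first 40 bases of the exon that follows, at chr14:68121345-68121384 in Nefm-201 and chr14:68115977-68116016 in Nefm-202.
Nefm-201: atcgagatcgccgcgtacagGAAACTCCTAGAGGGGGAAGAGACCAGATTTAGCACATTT
Nefm-202: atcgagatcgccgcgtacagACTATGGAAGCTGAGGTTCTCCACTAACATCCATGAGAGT

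Nefm-202 held 1.91% and 2.99% of the gene's TPM in the first table, on 108 and 167 expected counts, and 1.79% and 3.13% in the second. Its share was low in both mice and both tables and was higher in replicate 2 in each. The libraries keep strand per the labels, but the strand setting of the counting is not given in the sources used here, and without it reads of the 1108 shared bases cannot be given to Nefl or Nefm-202. A similar overlap exists at Ina, where 407 of its 3191 runs of 50 bases lie in the opposite strand of Nt5c2, a nucleotidase gene at 31.7 ± 5.78 TPM. The next coding genes beside the Nefl and Nefm pair were low or at 0, with Dock5 at 1.65 ± 0.686 TPM and Adam7 at 0 counts in both libraries. Next to Stmn2 lay Hey1 at 26.7 ± 0.0495 TPM, and next to Stmn4 lay Trim35 at 52.4 ± 0.594 TPM. Nefh, at 20.6 TPM, lay between its neighbours, Thoc5 at 15.5 ± 1.48 TPM and Ap1b1 at 64.3 ± 3.15 TPM.

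**Figure D2:**
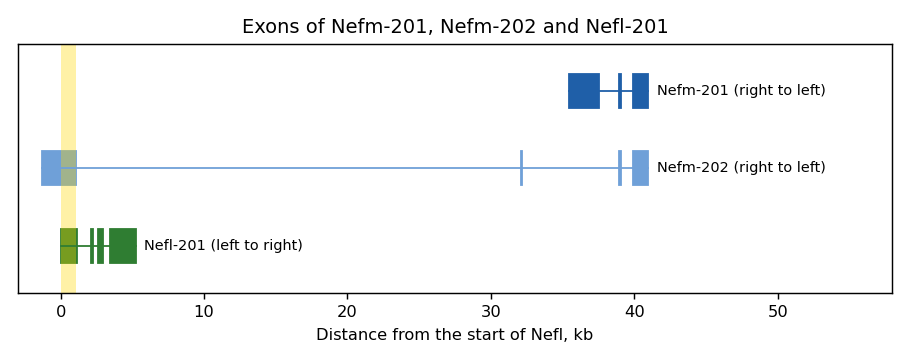
Exons (boxes) and introns (lines) of Nefm-201, Nefm-202 and Nefl-201 by distance in kilobases from the start of Nefl, with the direction of each transcript in brackets. The yellow band marks the 1108 bases that the last exon of Nefm-202 shares with the first exon of Nefl on the opposite strand.

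The alternative end of Nefm-202 removes the tail of the protein. The tails of the medium and heavy chains carry repeats of lysine, serine and proline whose serines are phosphorylated in axons. In the annotated coding sequences, Nefh-201 holds 51 such codon triplets in frame, from codon 522 to codon 887 of 1090 codons. Nefm-201 holds 4, from codon 501 to codon 609, and Nefm-202, with a coding sequence of 1410 bases, holds 0. Nefl and Ina hold 0 and Stmn3 holds 1. Part of the Nefh repeat region is shown because it sets the heavy chain apart from the rest of the family: codons 517 to 566, at chr11:4940920-4941069 on the minus strand, with the 8 triplets in capitals.
Nefh stretch: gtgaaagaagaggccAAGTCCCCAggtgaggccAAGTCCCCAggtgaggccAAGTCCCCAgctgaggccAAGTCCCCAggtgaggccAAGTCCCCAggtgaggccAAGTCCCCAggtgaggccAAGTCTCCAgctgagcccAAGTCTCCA

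Nefh had the longest coding sequence of the 8 genes, 3270 bases, and the lowest level. Its effective length was 3895 bases, against 3281 for Nefl and 3141 for Ina. In expected counts, without length correction, the mean ratios to Nefh were lower, at 6.41 for Nefl, 3.88 for Ina and 2.93 for Nefm, and Nefl over Ina was 1.65. The order of the chains was the same as in TPM.

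Transcript shares of the stathmins with several transcripts differed between the tables, as their levels did. Nefl, Nefh, Ina and Stmn3 have 1 annotated transcript each, while Stmn1 has 5, Stmn2 has 4 and Stmn4 has 9. In the first transcript table the leading transcript held at least 50% of the gene's TPM in both mice for 8 of 8 genes, and in the second for 7 of 8. The same transcript led in both tables for 7 of the 8.

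Stmn1-201, the main transcript, held 97.2% and 98.5% of the gene's TPM in the first table but 72.7% and 71.8% in the second. The difference went to Stmn1-203, which starts in an exon of 434 bases at chr4:134469742-134470175 and has the same coding length of 447 bases. It held 0.908% and 0.527% in the first table against 26.5% and 27.6% in the second. The mice matched within each table, and the tables differed in both mice.

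Stmn2-201 held 74.1% and 71.5% of the gene's TPM in the first table and 99.1% and 99.5% in the second. In the first table the rest was almost all Stmn2-203, a transcript of 308 bases without a coding sequence whose 2 exons both lie inside the last exon of Stmn2-201. Its share of TPM was 25.1% and 28.0%, but its share of the gene's reads was 3.43% and 3.95%, and the second table gave it 0 counts in both mice. TPM divides by length, so a transcript of this length takes a larger share of TPM than of reads. By reads, Stmn2-201 held 95.5% and 95.3% in the first table.

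Stmn4 had the most varied transcripts. Stmn4-201 held 77.6% and 81.7% of the gene's TPM in the first table and 41.1% and 39.5% in the second, where Stmn4-209 led at 44.9% and 45.7%. Stmn4-209 is annotated with 418 bases, and its effective length in the second table was 116 bases in both libraries. It held 0 counts in both mice in the first table and 9.85% and 9.82% of the gene's reads in the second. Stmn4-204 held 7.87% and 8.47% in the first table and 4.997% and 4.53% in the second, and Stmn4-203 held 5.07% and 3.58% in the first and 1.34% and 4.44% in the second. Stmn4-208, which retains an intron, held 5.09% and 2.85% in the first table. The mice lay close for Stmn4-204, and for Stmn4-203 neither mouse was higher in both tables.

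**Figure D3:**
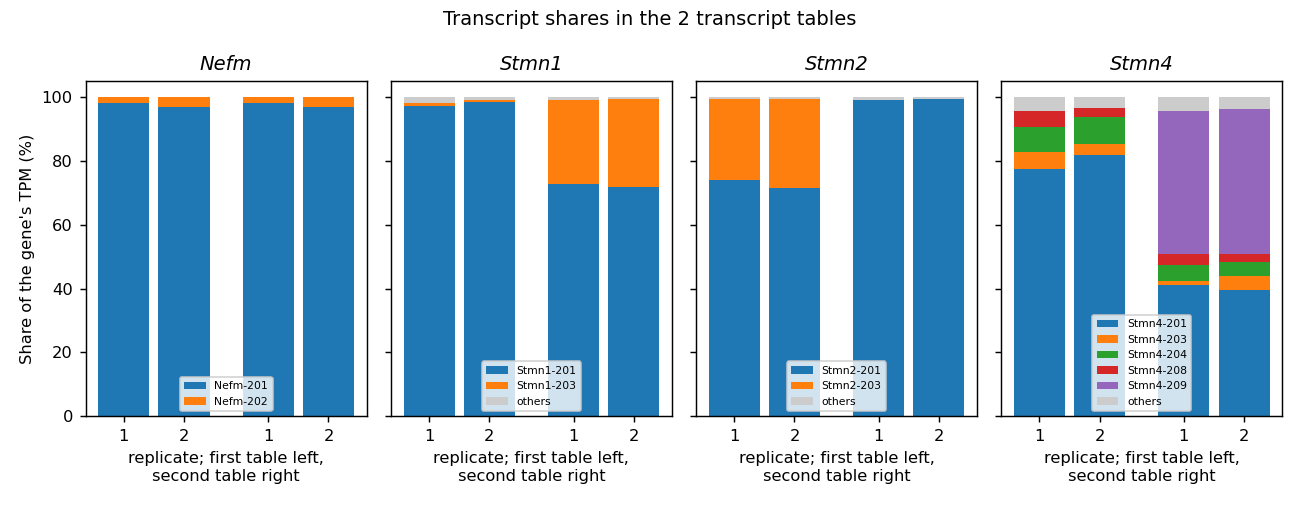
Stacked bars show each transcript's share (%) of its gene's TPM in the genes with several transcripts, by replicate, with the first transcript table as the left pair of bars and the second as the right pair. The pairs of bars match between the tables for Nefm (98.1% and 97.0% for Nefm-201 in the first table) and differ for Stmn1, Stmn2 and Stmn4.

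A coding exon of 81 bases in Stmn4 was given a similar share by both tables. It lies at chr14:66356269-66356349 on the plus strand, is a multiple of 3 bases and is present in 3 annotated transcripts (Stmn4-203, Stmn4-204 and Stmn4-206). The exon is shown because its inclusion separates forms of the protein: capitals mark the 81 bases and lower case the last 20 bases of the exon before and the first 20 bases of the exon after it.
Stmn4 exon: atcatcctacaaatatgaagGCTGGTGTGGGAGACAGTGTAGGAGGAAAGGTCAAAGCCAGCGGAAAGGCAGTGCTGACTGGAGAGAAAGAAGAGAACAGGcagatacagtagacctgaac

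Transcripts with this exon held 13.5% and 13.0% of the TPM of the transcripts that span its position in the first table (13.3 ± 0.393), and 10.2% and 11.4% in the second (10.8 ± 0.871). Among transcripts of over 1000 bases alone the values were 14.3% and 12.8% in the first table and 13.4% and 18.4% in the second. The exon was thus a minor form in both mice under both quantifications. A second optional exon, of 53 bases at chr14:66358679-66358731 and not a multiple of 3, was included at 8.69% and 9.03% in the first table and 10.5% and 9.92% in the second. The third, of 66 bases at chr14:66353149-66353214, belongs to Stmn4-206 and Stmn4-209. It was included at 0% and 0.564% in the first table against 48.7% and 48.0% in the second, so its inclusion was not settled by these files.

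The comparison of the mice asked how far the members varied between animals of the same strain, sex and age. Counts were scaled to a common library size (CPM) by trimmed means of M-values (TMM), which set the bulk of genes level, and each ratio is that of replicate 2 to replicate 1. Nefl, at 346 and 350 CPM, had a log2 ratio of 0.018, with a 95% interval for counting error of -0.020 to 0.056. Nefh, at 53.8 and 54.7 CPM, had a log2 ratio of 0.024 (-0.073 to 0.12). Both genes were level between the mice within counting error. Ina, at 215 and 207 CPM, had a log2 ratio of -0.054 (-0.10 to -0.0047). Nefm, at 172 and 146 CPM, stood apart from the other neurofilament genes with a log2 ratio of -0.23 (-0.29 to -0.18), at the 11.2th percentile of all genes.

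The 4 stathmins were higher in replicate 2 by similar amounts on this scale. Stmn1, at 271 and 325 CPM, had a log2 ratio of 0.26 (0.22 to 0.31). Stmn3, at 185 and 223 CPM, had a log2 ratio of 0.26 (0.21 to 0.31). Both lay at about the 90.6th percentile of all genes. Stmn2, at 212 and 245 CPM, had a log2 ratio of 0.21 (0.16 to 0.26), and Stmn4, at 110.1 and 128 CPM, one of 0.22 (0.15 to 0.29). The interval of each stathmin lay above 0 and above the interval of each neurofilament gene. Counting intervals leave out the spread between mice, which these ratios themselves consist of.

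**Figure D4:**
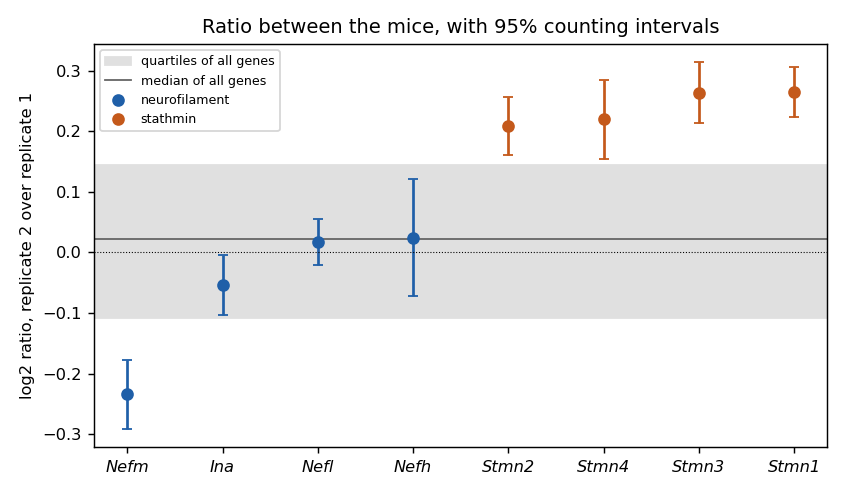
Log2 ratio of replicate 2 over replicate 1 in TMM-scaled CPM for each gene, with 95% counting intervals as bars, over the median (line) and quartiles (grey band) of 12615 genes. The stathmins lie between 0.21 and 0.26, above the grey band, and Nefm, at -0.23, lies below it.

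None of the 8 genes passed a 2-fold difference between the mice, a rule that 0.753% of the 12615 genes counted at 100 or more on average passed in either direction (0.277% higher and 0.476% lower in replicate 2). None differed by 0.322 or more in log2 ratio, which 12.1% of those genes passed. With so few members, 0 of 8 is near both background shares. The median log2 ratio was 0.12 over the 8 genes, -0.018 over the neurofilament genes and 0.24 over the stathmins, beside 0.023 over all 12615 genes, whose quartiles were -0.11 and 0.14.

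The direction of the stathmins held only relative to the other genes. Scaling to the ERCC spike-ins, which took 0.349% and 0.461% of expected counts, moved the median of all genes to -0.42. The stathmin median then became -0.20 and the neurofilament median -0.46, so the stathmins were lower in replicate 2 on that scale. With TPM as deposited the medians were -0.20 over all genes, 0.035 over the stathmins and -0.24 over the neurofilament genes. Nuclear protein-coding genes as a whole took 46.8% of TPM in replicate 1 and 41.8% in replicate 2. The stathmin median exceeded the neurofilament median by 0.26 with TMM. A single scaling factor per library cancels in that difference, so its value of 0.26 with spike-ins is no separate check, and with TPM, which also uses effective lengths, it was 0.28.

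Transcript length moved with this gap. The median log2 ratio of coding genes was 0.14 for 967 genes with an effective length under 1000 bases, the class of Stmn1. It was 0.074 for 3086 genes of 1000 to 2000 bases, the class of Stmn2, Stmn3 and Stmn4, and 0.012 for 2108 genes of 3000 to 4000 bases, the class of the 4 neurofilament genes. Each stathmin lay above the upper quartile of its class, which was 0.25 for the shortest genes and 0.18 for the next. Nefl, Nefh and Ina lay within the quartiles of theirs, -0.098 and 0.11, and Nefm lay below them. The part of length in the gap between the families was not tested.

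**Figure D5:**
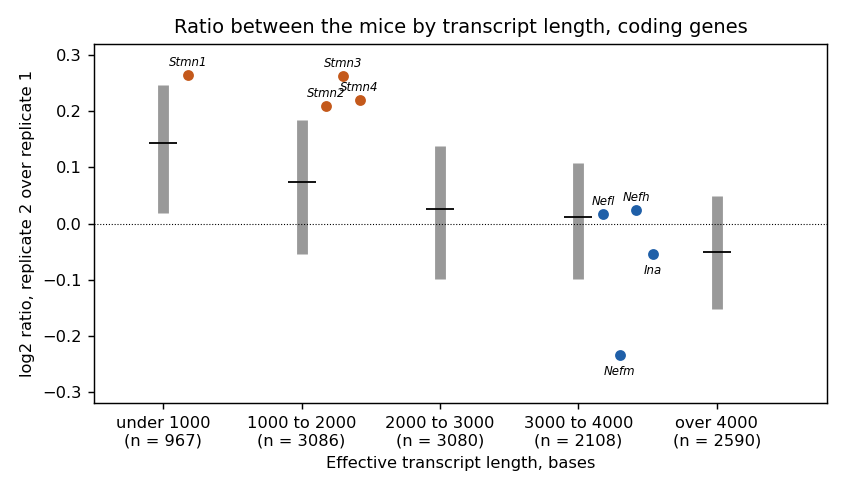
Median (black line) and quartiles (grey bar) of the log2 ratio of replicate 2 over replicate 1 for coding genes in 5 classes of effective transcript length in bases, with the members as points beside their class. The medians fall from 0.14 in the shortest class to -0.050 in the longest, and each stathmin (orange) lies above the upper quartile of its class.

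Markers of the neurons that carry these proteins were present, and the median ratios of the lists lay close to that of all genes, with members on both sides. The 6 neuron markers had a median of 485 TPM and a median log2 ratio of 0.081, and the 5 excitatory projection neuron markers had 64.9 TPM and 0.0055. Those listed for parvalbumin interneurons, which include large fast-spiking cells, were Pvalb, Gad1, Gad2, Kcnc1 and Tac1. They had a median of 51.1 TPM and a median log2 ratio of 0.047, which is the value of Gad2. Pvalb itself had a log2 ratio of -0.059. Deep-layer projection neuron markers had 20.3 TPM and 0.022. Of the neuron markers, 1 of 6 was higher in replicate 2 by at least 0.322 (Tubb3, 0.35), and of the deep-layer markers 1 of 5 was higher (Crym, 0.39) and 1 lower (Foxp2, -0.36). None of the excitatory or parvalbumin markers differed by that much. Markers of oligodendrocytes, the cells that myelinate axons, had a median of 130.1 TPM and a median log2 ratio of -0.077, and 0 of 5 differed by 0.322 or more. Among all genes 5.53% were higher and 6.6% lower by that much. Beside these shares, 0 or 1 in a list of 5 or 6 genes is no result about the list. Markers of the choroid plexus, a tissue of the brain ventricles, summed to 75.7 and 10.9 TPM. All 5 were lower in replicate 2, but only 2 of them averaged 100 counts or more. Most of the sum was Ttr, the transthyretin gene, at 70.1 and 8.29 TPM. The part of these other cells in the ratios of the members was not tested.

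Markers of peripheral or motor neurons, which also carry much neurofilament, were near 0. The 5 summed to 1.34 and 1.48 TPM, and Mnx1 had 0 counts in both libraries. Prph, the peripherin gene and a filament partner of Nefl in peripheral nerves, stood at 0.410 and 0.740 TPM. Stmn1 is also known from dividing cells, and of the proliferation markers Mki67 stood at 0.415 ± 0.0212 TPM, Top2a at 0.605 ± 0.177 TPM and Cdk1 at 0.345 ± 0.417 TPM. Pcna, which also serves DNA repair, stood at 22.01 and 19.98 TPM. The immature neuron marker Dcx stood at 10.1 ± 1.30 TPM, far under the 223 TPM of Stmn2.

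Partners of the filaments were expressed over a wide range. Of 10 other intermediate filament genes, 7 averaged 100 counts or more and 0 of these differed by 0.322 or more in log2 ratio. Among all genes 12.1% did. The highest was Gfap, the astrocyte filament gene, at 51.8 ± 0.431 TPM, below Nefl, Ina and Nefm, and the lowest was Des, the muscle desmin gene, at 0.530 ± 0.127 TPM. Of 11 genes that link, carry or turn over neurofilaments, 10 averaged 100 counts or more and 0 of these differed by at least 0.322. The closest was Uchl1, a ubiquitin hydrolase gene, at 0.320. In lists this small, 0 is near the share of all genes. Kif5a, a kinesin that carries neurofilaments along axons, was the highest at 506 ± 41.6 TPM, above all 8 members, and Hspb1, a small heat shock protein gene, the lowest at 5.02 ± 0.424 TPM. The cytolinker genes Dst and Macf1 stood at 113 ± 21.1 and 90.1 ± 19.9 TPM.

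Of 15 genes for kinases and phosphatases that act on neurofilaments or stathmins, 1 was higher in replicate 2 by at least 0.322 in log2 ratio and 1 was lower, where 5.53% and 6.6% of all genes were. Mapk3, the ERK1 kinase gene, was the higher, at 49.6 and 60.2 TPM with a log2 ratio of 0.52, and Rock1, a kinase gene of the cytoskeleton, was the lower and the least abundant of the list, at 13.0 and 8.58 TPM. The most abundant was Ppp3ca, a catalytic subunit of calcineurin, at 399 ± 41.1 TPM. Cdk5, a kinase of the neurofilament tails, stood at 57.4 ± 4.68 TPM. Its activator genes Cdk5r1 and Cdk5r2 were more abundant, at 136 ± 2.43 and 195 ± 0.113 TPM.

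Of 10 genes for palmitoylation of the stathmin anchor and for axon maintenance, 1 was higher by at least 0.322 in log2 ratio and 0 were lower. Among all genes 5.53% were higher and 6.6% lower by that much, so 1 of 10 is near the background. It was the palmitoyltransferase gene Zdhhc15, at 0.34, which was also the lowest of the list at 2.81 and 3.05 TPM. The highest was Tardbp, at 102 and 61.3 TPM, with a log2 ratio of -0.31. It encodes TDP-43, an RNA-binding protein known to guard the splicing of human STMN2.

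For members other than Ina the coding gene with the closest level over the 2 libraries was found among 21930 genes by distance in log2(TPM + 1). These were Nrn1 for Nefl, Cop1 for Nefm, Larp4 for Nefh, Rps29 for Stmn1, Gpx4 for Stmn2, Rpl23a for Stmn3 and Ptprn2 for Stmn4. The smallest distance was 0.0038 (Larp4, at 22.01 and 19.11 TPM) and the largest 0.057 (Rps29, at 468 and 471 TPM). With 2 libraries such closeness says only that the levels were alike.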

How the data were processed

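Both libraries came with a gene table and 2 transcript tables. Per the file headers, the gene table and first transcript table hold the authors' expected counts and TPM under column names that RSEM writes, and the second transcript table holds estimated counts and TPM under names that kallisto writes. Build mm10 is per the labels and GENCODE M21 per the deposited notes. The sources used here do not name the aligner, the versions or the strand setting. Depth was 29417200 and 35188800 expected counts, each to the nearest 100. The reference was that of C57BL/6J, and loss of reads from CAST/EiJ alleles was not tested.

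Expected counts were rounded to whole numbers. CPM ratios used edgeR 4.0.16 (R 4.3.3), with TMM factors from genes averaging 10 counts or more and a prior count of 2. The rules of size (2-fold, and 0.322 in log2 ratio) were applied to genes averaging 100 counts or more. Intervals are 95% exact Clopper-Pearson intervals of a gene's reads, for counting error only, since these tables carry no molecular identifiers. A transcript's share is its TPM divided by the sum for its gene. Other software was Python 3.11.15, numpy 2.4.6, pandas 2.3.3, scipy 1.17.1, matplotlib 3.10.9 and, for an alternative scaling, DESeq2 1.42.0. The ratio step was tested on simulated data.

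The members, lists and alternatives were chosen with earlier results of these data known. The genes named are the 8 members, transcripts with at least 5% in either table, the nearest gene by level, overlapping and neighbouring genes, and from each list the highest, the lowest and those past 0.5 in log2 ratio. Other list genes were chosen after their values were seen. A few items under this rule are not reported here.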

Additional observations from a re-analysis of the deposited data

How the results depend on the processing

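No paired analysis was possible because both libraries belong to 1 group. Levels depended on the denominator: the neurofilament sum of 349 TPM became 510.5 TPM in the second transcript table and 786 TPM when scaled to nuclear protein-coding genes, and the stathmin sum of 1121 TPM became 2162 and 2539 TPM. Stmn3 over Stmn2 turned to 0.891 in expected counts, without length correction, and Stmn2 over Stmn4 to 0.642 in the second table. With spike-in scaling the log2 ratios turned to -0.18 for Stmn1, -0.24 for Stmn2, -0.18 for Stmn3 and -0.23 for Stmn4, and with TPM that of Stmn4 turned to -0.034. The median log2 ratio of the 8 genes, 0.12 with TMM, was -0.33 with spike-ins, -0.12 with TPM and 0.19 in the second table. That of the neurofilament genes was -0.46 with spike-ins and -0.24 with TPM, and that of the stathmins was -0.20, 0.035 and, in the second table, 0.30. Members differing by at least 0.322 in log2 ratio numbered 4 with spike-ins, all neurofilament genes, and 1 with TPM, Nefm. The median of all genes was itself -0.42 with spike-ins, past that size, and -0.20 with TPM. These counts therefore follow the shift of all genes and are no result about the neurofilament genes. Genes past 2-fold numbered 95 with TMM, 306 with spike-ins, 203 with TPM and 770 when genes down to a mean of 10 counts were kept. These shifts follow the change of scale or filter; other causes were not tested. DESeq2 size factors, no filter before TMM and a prior count of 0.5 moved no log2 ratio among the 15 ratio results beyond its error. Genes past 2-fold, a count without such an error, then numbered 96, 90 and 99. The size factors and the filter shift the members alike, and a prior count hardly moves genes with this many counts. These settings are therefore no separate check. Leaving out either replicate gives the other library's value, which by construction lies within 1 SD of a mean of 2 and says nothing about stability. With 2 libraries the spread between mice is poorly known, and depth limits Nefh and the minor transcripts most.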

Other observations

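Genes for tubulin, the protein that stathmins bind, and for the growth cone were also described. Of 9 tubulin genes averaging 100 counts or more, 4 were higher in replicate 2 by at least 0.322 in log2 ratio and 0 were lower, against 5.53% and 6.6% of all genes. They were Tuba1a (log2 ratio 0.39), Tubb2a (0.41), Tubb2b (0.37) and the neuronal Tubb3 (0.35), which was also counted among the neuron markers. The list's median log2 ratio was 0.26, beside 0.24 for the stathmins and 0.023 for all genes. Tuba1a was the most abundant at 425 ± 33.7 TPM and Tubb6 the least at 0.690 ± 0.240 TPM. Tubulin genes are near-identical in part, so reads may be divided among them.

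Of 8 growth cone and axon growth genes, 3 were higher in replicate 2 by at least 0.322 in log2 ratio and 0 were lower, against 5.53% and 6.6% of all genes: Gap43 (log2 ratio 0.44), Basp1 (0.35) and Crmp1 (0.323). The median was 0.24, and Map1b, at 0.0050, and Dcx, at 0.063, were the closest to level. Basp1 was the most abundant at 325 ± 18.99 TPM and Dcx the least. With spike-in scaling the median of all genes was -0.42, so these directions too are relative to other genes, and the part of transcript length in them was not tested.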
